A study of Arabidopsis thaliana with 12 samples.

Results

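A group of 23 Arabidopsis genes differed in group mean between ibr1ibr3ibr10 and Col-0 root tips. The direction was the same with or without the auxin precursor indole-3-butyric acid (IBA). For 15 of them the difference with IBA was within 0.2 log2 units of that without it, on the deposited scaling. The 23 were chosen from the group means. The mutant differed from Col-0 by at least 0.4 on the log2 scale, in 1 direction, on IBA and on DMSO. In addition the IBA minus DMSO difference lay between -0.3 and 0.5 in the mutant and between -0.5 and 0.5 in Col-0. Only genes known by a bare locus number, measured by a probe set that names 1 gene, and with a highest group mean of at least 4 could qualify. Of 13356 genes with such a probe set, 6870 met these entry conditions; 92 of them passed the genotype threshold, 51 of those the Col-0 limit, and 23 the mutant limit as well. In the mutant 8 of the 23 were higher and 15 were lower. All 4 group means went into the choice, so the levels and differences of the 23 genes are given as descriptions, with no test.

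IBA is an auxin precursor that peroxisomes shorten to indole-3-acetic acid, the main auxin of plants, in a pathway resembling fatty acid beta-oxidation. IBR1 resembles a short-chain dehydrogenase/reductase, IBR3 an acyl-CoA dehydrogenase and IBR10 an enoyl-CoA hydratase/isomerase, and mutants in these genes respond poorly to IBA while still responding to auxin itself. In root tips, auxin formed from IBA is known to feed root hair growth and the setting of lateral root positions.

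The 12 arrays (Affymetrix ATH1, 1 colour) measured RNA of primary root tips about 4 mm long, in 4 groups of 3: the ibr1ibr3ibr10 triple mutant on 10 µM IBA, Col-0 on 10 µM IBA, the mutant on DMSO, and Col-0 on DMSO, the solvent control. The source labels put the mutant in the Col-0 background and call Col-0 the wild type. Seedlings stood 3 days after germination at transfer to fresh Murashige and Skoog medium of reduced strength, with or without IBA, and were cut after 6 h. The source label of the Col-0 arrays on IBA, alone of the 4 groups, also puts DMSO in the medium of the days before transfer, which their treatment protocol does not; any effect of it and the group cannot be told apart. Each replicate was described as independent and pooled at least 120 tips. The titles of the mutant arrays name ibr3 alone and those of the DMSO arrays give another time; the fuller labels, which give the triple mutant and 6 h, were followed. Values are log2 expression after RMA, so a difference of 1 is a 2-fold difference, and they run from 1.401 to 13.45. In RNA from pooled tips, fewer cells of a type and less RNA per cell cannot be told apart. Replicate arrays correlated at 0.995 to 0.998 over all probe sets. IBR1, IBR3 and IBR10 have no probe set that names them alone, so the lesion itself was not checked here. Root hair genes EXPA7, EXPA18 and AT4G26010 were at 7.58 to 10.35 in every group mean, and the root cap gene AT1G65570 at 6.90 to 7.90. Differences are given relative to the deposited scaling. Scaling to the bacterial control transcripts instead moved the median genotype difference of all probe sets by 0.40 on IBA and -0.13 on DMSO. The controls were uneven: their mean was 5.31, 5.51 and 4.96 in the Col-0 arrays on IBA. It was 4.76 to 5.02 in the arrays of the other groups. Under the bacterial control scaling all 23 genes kept their direction on both media. Only 10 of them still met the rule, among 27 genes that did. On IBA 19 of the 23 differences moved by over 1.5 times: the lower genes ranged from -1.08 to -0.02, with 6 under 0.4 in size, and the higher genes other than AT3G55920 from 0.83 to 1.36. The smallest were those of AT1G77250 at -0.02, AT1G34630 at -0.10, AT2G22600 at -0.15 and AT1G06450 at -0.20. On DMSO none of the 23 moved by over 1.5 times.

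**Figure D1:**
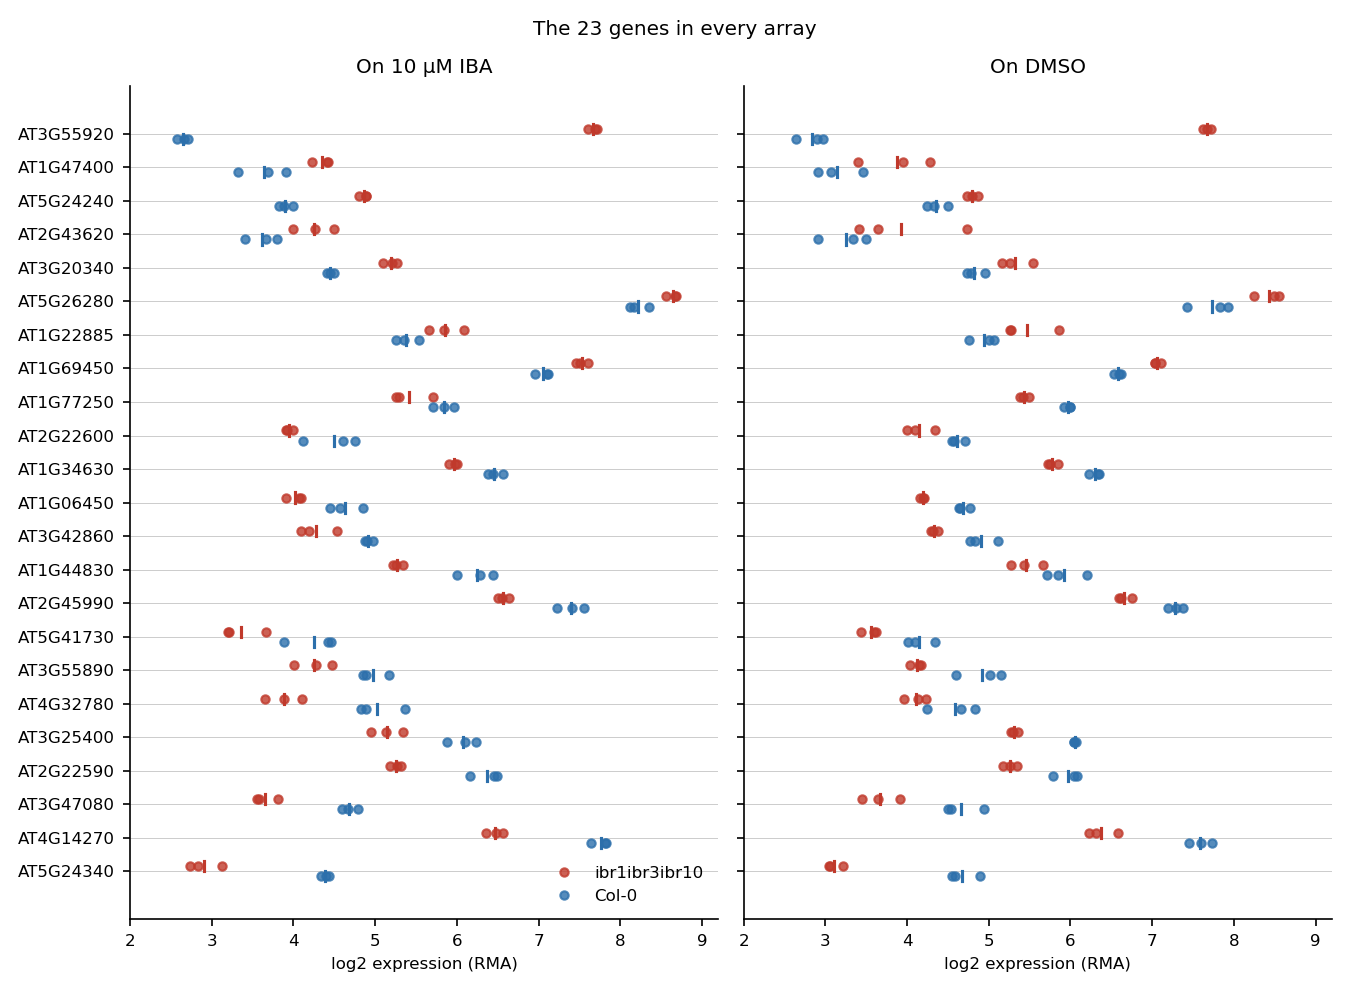
Log2 RMA expression of each of the 23 genes (rows) in each array, on IBA (left) and DMSO (right), with mutant arrays in red above Col-0 arrays in blue and a vertical tick at each group mean. The red and blue points of AT3G55920 lie about 5 log2 units apart on IBA, and those of the other 22 genes between 0.42 and 1.49 units apart as means.

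AT3G55920 carried the largest difference of the 23. It encodes a member of the cyclophilin-type peptidyl-prolyl isomerases, enzymes that help proteins fold. Its log2 expression was 7.71, 7.60 and 7.69 in mutant arrays on IBA, against 2.71, 2.66 and 2.58 in Col-0 arrays. On DMSO it was 7.67, 7.62 and 7.71 in mutant arrays, against 2.64, 2.90 and 2.98 in Col-0 arrays. The 6 mutant arrays lay within 0.11 of one another and far above all 6 Col-0 arrays. The difference was 5.02 on IBA and 4.83 on DMSO, the largest increase among the 22746 probe sets tested on each medium. The Col-0 arrays lay below 3.24, the 0.3 quantile of probe set means, taken here as a dim level. With the Col-0 means raised to that level, the mutant was still at least 21-fold higher on both media. The IBA minus DMSO difference was 0.00 in the mutant and -0.19 in Col-0.

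The 15 genes lower in the mutant are taken by the families of their proteins, beginning with those that handle RNA or nucleotides. The families are background knowledge; the gene table used here gives the 23 loci no name. AT4G14270 encodes a protein with a motif that binds poly(A)-binding protein. It had 6.35, 6.57 and 6.48 in mutant arrays on IBA, against 7.82, 7.82 and 7.64 in Col-0 arrays. On DMSO it had 6.23, 6.31 and 6.59 in the mutant, against 7.59, 7.45 and 7.73 in Col-0. No mutant array on either medium reached the lowest Col-0 array, and the difference was -1.29 on IBA and -1.22 on DMSO. AT5G24340, of a family with an exonuclease domain, had 3.13, 2.84 and 2.74 in mutant arrays on IBA, against 4.43, 4.34 and 4.40 in Col-0 arrays. Its DMSO values were 3.05, 3.04 and 3.22 in the mutant, against 4.55, 4.58 and 4.89 in Col-0. The mutant arrays again lay below all Col-0 arrays, and their group means were under the dim level on both media. Its difference was -1.49 on IBA and -1.57 on DMSO; with the mutant means raised to 3.24 it was at least 2.22-fold lower on IBA and at least 2.69-fold lower on DMSO. With AT3G55920 they were the 3 of the 23 genes beyond 1 log2 unit on both media.

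The other nucleic acid genes differed less. AT3G25400, which resembles dCTP pyrophosphatases that clear the nucleotide pool, averaged 5.14 ± 0.20 in the mutant and 6.07 ± 0.18 in Col-0 on IBA (SD, n = 3 in each group here and below). On DMSO it averaged 5.31 ± 0.04 in the mutant and 6.05 ± 0.01 in Col-0, and the difference was -0.93 on IBA and -0.74 on DMSO. AT3G42860, a zinc knuckle protein, differed by -0.64 on IBA and -0.57 on DMSO. The arrays of both genes did not overlap between genotypes on either medium. AT1G06450, of the CAF1 family of deadenylases that shorten the poly(A) tails of messenger RNA, averaged 4.02 ± 0.10 in the mutant and 4.63 ± 0.21 in Col-0 on IBA. Its difference was -0.60 on IBA and -0.49 on DMSO. AT2G22600, an RNA-binding protein with KH domains, differed by -0.55 on IBA and -0.47 on DMSO; its mutant and Col-0 arrays were apart on each medium, but 1 Col-0 array on IBA, at 4.11, lay below the highest mutant array on DMSO, at 4.34.

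Among regulators, AT1G44830 belongs to the ERF family of transcription factors. It had 5.26, 5.34 and 5.21 in mutant arrays on IBA, against 6.44, 6.28 and 6.01 in Col-0 arrays. On DMSO it had 5.43, 5.67 and 5.27 in the mutant, against 6.20, 5.84 and 5.71 in Col-0. The genotypes were apart on both media, but by only 0.04 between the nearest DMSO arrays, and the difference was -0.97 on IBA and -0.46 on DMSO. AT5G41730, a protein kinase family member, averaged 3.36 ± 0.27 in the mutant and 4.26 ± 0.32 in Col-0 on IBA, with a difference of -0.90 on IBA and -0.60 on DMSO. AT1G77250, a zinc finger protein of the PHD type, had 5.71, 5.25 and 5.29 in mutant arrays on IBA, against 5.97, 5.71 and 5.84 in Col-0 arrays. The highest mutant array on IBA equalled the lowest Col-0 array to 2 decimals, and it was the only one of the 23 whose IBA arrays overlapped. Its difference was -0.42 on IBA and -0.54 on DMSO. AT3G55890, of the Yippee family of zinc-binding proteins, averaged 4.25 ± 0.23 in the mutant and 4.97 ± 0.18 in Col-0 on IBA. On DMSO it averaged 4.12 ± 0.07 in the mutant and 4.92 ± 0.28 in Col-0, with a difference of -0.72 on IBA and -0.80 on DMSO. A further probe set that names both AT3G55890 and AT3G55910 went the other way: it averaged 3.35 ± 0.28 in the mutant and 2.15 ± 0.14 in Col-0 on IBA, and 2.73 ± 0.12 in the mutant and 2.18 ± 0.05 in Col-0 on DMSO. All its group means but that of the mutant on IBA lay under the dim level. Which of the 2 genes that probe set follows was not tested.

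AT2G22590 encodes a UDP-glycosyltransferase, an enzyme type that attaches sugars to small molecules. Its log2 expression was 5.31, 5.19 and 5.26 in mutant arrays on IBA, against 6.17, 6.49 and 6.46 in Col-0 arrays. On DMSO it was 5.27, 5.35 and 5.18 in the mutant, against 6.08, 6.05 and 5.79 in Col-0. The mutant arrays stayed between 5.18 and 5.35 on both media, and the Col-0 arrays on IBA were all above those on DMSO. The difference was -1.11 on IBA and -0.71 on DMSO. AT3G47080, which resembles tetratricopeptide repeat proteins, had 3.56, 3.58 and 3.81 in mutant arrays on IBA, against 4.79, 4.67 and 4.59 in Col-0 arrays, and a difference of -1.03 on IBA and -0.99 on DMSO. The 3 remaining lower genes are given no role here. AT2G45990 averaged 6.56 ± 0.07 in the mutant and 7.40 ± 0.17 in Col-0 on IBA and differed by -0.84 on IBA and -0.63 on DMSO. AT1G34630 differed by -0.50 on IBA and -0.53 on DMSO, and no array overlapped on either medium for these 2 genes. AT4G32780 is described with the least constant genes.

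The 7 genes higher in the mutant apart from AT3G55920 showed differences of 0.43 to 0.96 on IBA and of 0.45 to 0.73 on DMSO, up to 1.94-fold on IBA. The 0.73 on DMSO is that of AT1G47400, whose Col-0 mean there lay under the dim level. AT1G69450 belongs to a family of membrane proteins that includes the OSCA calcium channels. It had 7.51, 7.46 and 7.61 in mutant arrays on IBA, against 6.96, 7.11 and 7.11 in Col-0 arrays. On DMSO it had 7.10, 7.04 and 7.04 in the mutant, against 6.62, 6.54 and 6.59 in Col-0. The genotypes were apart on each medium, while the Col-0 arrays on IBA reached the mutant arrays on DMSO. The difference was 0.47 on IBA and 0.48 on DMSO, and IBA minus DMSO was 0.47 in the mutant and 0.48 in Col-0. AT1G22885, which is given no role here, stood likewise in its means: a difference of 0.48 on IBA and 0.52 on DMSO, and IBA minus DMSO of 0.40 in the mutant and 0.44 in Col-0. Its replicates spread wider, with a pooled within-group SD of 0.23 against 0.06 for AT1G69450. Without mutant DMSO replicate 1, at 5.86 against 5.28 and 5.26 in the other 2, the DMSO difference of AT1G22885 was 0.33. AT5G26280, of a family with TRAF-like domains, averaged 8.64 ± 0.07 in the mutant and 8.21 ± 0.12 in Col-0 on IBA and 8.43 ± 0.17 in the mutant and 7.73 ± 0.26 in Col-0 on DMSO. Its arrays did not overlap on either medium. AT3G20340, also given no role, averaged 5.19 ± 0.09 in the mutant and 4.45 ± 0.04 in Col-0 on IBA and 5.32 ± 0.20 in the mutant and 4.83 ± 0.12 in Col-0 on DMSO. Its lowest mutant array of 6 lay above its highest Col-0 array of 6.

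AT2G43620 and AT1G47400 were the least regular between replicates. AT2G43620 encodes a member of the chitinase family, enzymes that cut the chitin of fungal walls. It had 3.99, 4.50 and 4.26 in mutant arrays on IBA, against 3.66, 3.80 and 3.41 in Col-0 arrays. On DMSO it had 4.74, 3.41 and 3.65 in the mutant, against 2.91, 3.34 and 3.50 in Col-0, so that 1 mutant array lay high and another lay below the highest Col-0 array. Without that high array, mutant replicate 1, the DMSO difference was 0.28, against 0.68 with it. AT1G47400 belongs to the IRON MAN peptides, which take part in the response to iron shortage. It had 4.43, 4.23 and 4.41 in mutant arrays on IBA, against 3.33, 3.69 and 3.91 in Col-0 arrays. Its DMSO values were 4.28, 3.96 and 3.40 in the mutant, against 3.07, 3.46 and 2.91 in Col-0. The genotypes overlapped on DMSO, where the Col-0 mean was under the dim level, and were apart on IBA. The difference was 0.71 on IBA and 0.73 on DMSO; with the Col-0 mean on DMSO raised to 3.24, the mutant was at least 1.55-fold higher there.

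The arrays of the 2 genotypes did not overlap for 22 of the 23 genes on IBA and for 21 on DMSO, where the same held for 24.2% and 21.9% of all probe sets. With both media joined, the 6 mutant and 6 Col-0 arrays were apart for 16 genes, 3 higher and 13 lower, beside 1.68% of all probe sets. In the limma fit, with Benjamini-Hochberg adjusted p under 0.05, 21 of the 23 were called between genotypes on IBA, beside 11.0% of 22746 probe sets, and 16 on DMSO, beside 2.42%. By direction, 6 were called higher and 15 lower on IBA, beside 5.95% and 5.08% of probe sets, and 5 higher and 11 lower on DMSO, beside 1.82% and 0.602%. The 16 called on DMSO were called in the same direction on IBA, which 0.774% of probe sets were. AT1G22885 and AT2G43620 were called on neither medium. AT4G32780, AT5G41730, AT1G44830, AT2G22600 and AT1G47400 were called on IBA but not on DMSO. The rule used those same contrasts, so nothing is read from these counts. The background count on DMSO fell whichever DMSO array was left out: 550 probe sets were called with all arrays, and 277 to 468 without 1 of the 6. It was 277 without mutant DMSO replicate 1 and 363 without mutant DMSO replicate 2. It was 357 without Col-0 DMSO replicate 2 and 298 without Col-0 DMSO replicate 3. Membership also moved: scaling to the bacterial controls kept 10 of the 23, as given above. Leaving out each array in turn gave 16 to 27 genes, of which 16 to 23 were among the 23. The number higher in the mutant, 8, was 5 without mutant DMSO replicate 1, 13 without mutant DMSO replicate 3 and 4 without Col-0 IBA replicate 1. AT3G55920, AT4G14270, AT3G47080, AT3G25400, AT3G55890, AT2G45990, AT3G42860, AT1G06450 and AT1G34630 met the rule in all 12 of these runs, and AT4G32780 and AT1G47400 in the fewest, 7.

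**Figure D2:**
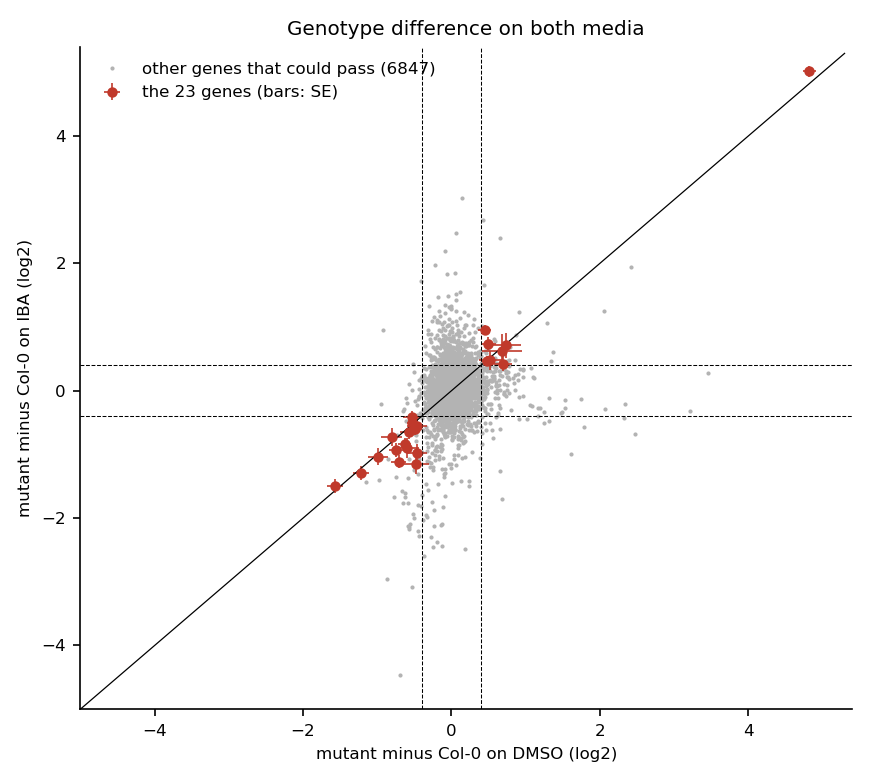
Mutant minus Col-0 difference (log2) on DMSO (horizontal axis) and on IBA (vertical axis) for the 23 genes in red, with standard errors from the limma fit, and the other 6847 genes that met the entry conditions in gray. Dashed lines stand at -0.4 and 0.4 and the solid line marks equal differences; AT3G55920 is the red point at 5.02 on IBA and 4.83 on DMSO.

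The genes just inside and just outside the 0.4 threshold differed little. Among higher genes, AT5G26280 stood inside with 0.43 on IBA and 0.70 on DMSO, and AT5G24240 with 0.96 on IBA and 0.45 on DMSO. AT3G60520 stood outside with 0.54 on IBA and 0.399 on DMSO, and AT2G16990 with 0.43 on IBA and 0.395 on DMSO. Among lower genes, AT1G77250 and AT1G44830 were nearest on the inside. AT2G43480 stood outside with -0.44 on IBA and -0.397 on DMSO, and AT1G19650 with -0.62 on IBA and -0.38 on DMSO. A further 7 genes with a symbol of their own met the same numerical limits but not the naming condition: TRI and ARLA1B were higher in the mutant, and HEMA2, OBE1, GH9C3, Hsp70-2 and ZIP9 lower. The loci AT5G09570, AT4G36430 and AT4G33420 were to be left out by name, but none of them met the limits: mutant IBA minus DMSO was -0.94 for AT5G09570 and -0.62 for AT4G36430, and Col-0 IBA minus DMSO was 1.198 for AT4G33420.

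How constant the difference was varied between the genes. The change of the genotype difference, that on IBA minus that on DMSO, was under 0.2 in size for 15 of the 23 and over 0.4 for 4. Leaving out each array in turn put 11 to 17 under 0.2 and 3 to 5 over 0.4. Both IBA minus DMSO differences were under 0.2 in size for 11. In 4 of the 8 higher genes, AT1G69450, AT1G22885, AT2G43620 and AT1G47400, both genotypes stood more than 0.3 higher on IBA; without mutant DMSO replicate 3 this held for 1 of them. In AT2G43620 the arrays were uneven: without mutant DMSO replicate 1 the mutant stood 0.72 higher on IBA, and the change of the genotype difference was 0.35. Of the 15 lower genes 11 had the larger difference on IBA. Over all probe sets more were called between genotypes on IBA, 11.0%, than on DMSO, 2.42%. The share of all genes with the larger difference on IBA is not given here. The bacterial control scaling shifted every change of the difference by 0.54, which left 3 of the 23 under 0.2 and put 16 over 0.4, and 1 of the 15 lower genes then had the larger difference on IBA. In the fit over all probe sets 1 of the 23, AT1G69450, was called for IBA minus DMSO in the mutant and 5 in Col-0, beside 9.36% and 23.5% of all probe sets. These counts too follow from the limits of the rule.

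The 4 least constant genes were AT4G32780, AT5G24240, AT1G44830 and AT2G22590. AT4G32780 had 3.65, 3.88 and 4.11 in mutant arrays on IBA, against 4.89, 4.82 and 5.36 in Col-0 arrays. On DMSO it had 4.23, 4.13 and 3.97 in the mutant, against 4.66, 4.25 and 4.83 in Col-0. The genotypes stood clear of each other on IBA but by only 0.02 between the nearest DMSO arrays. The difference was -1.15 on IBA and -0.47 on DMSO, a change of -0.67, with IBA minus DMSO at -0.23 in the mutant and 0.45 in Col-0. AT5G24240, of a lipid kinase family with ubiquitin-like domains, had 4.89, 4.80 and 4.89 in mutant arrays on IBA, against 4.00, 3.89 and 3.82 in Col-0 arrays. Its DMSO values were 4.87, 4.80 and 4.74 in the mutant, against 4.50, 4.33 and 4.24 in Col-0. The mutant arrays held between 4.74 and 4.89 on both media, and every Col-0 array on IBA lay below every Col-0 array on DMSO. The change of the difference was 0.51, and it was the only one of the 23 called for that change in the fit, beside 6.50% of all probe sets. For AT1G44830 the change was -0.51 and for AT2G22590 -0.41; in both, as in AT4G32780, Col-0 stood higher on IBA and the mutant did not.

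**Figure D3:**
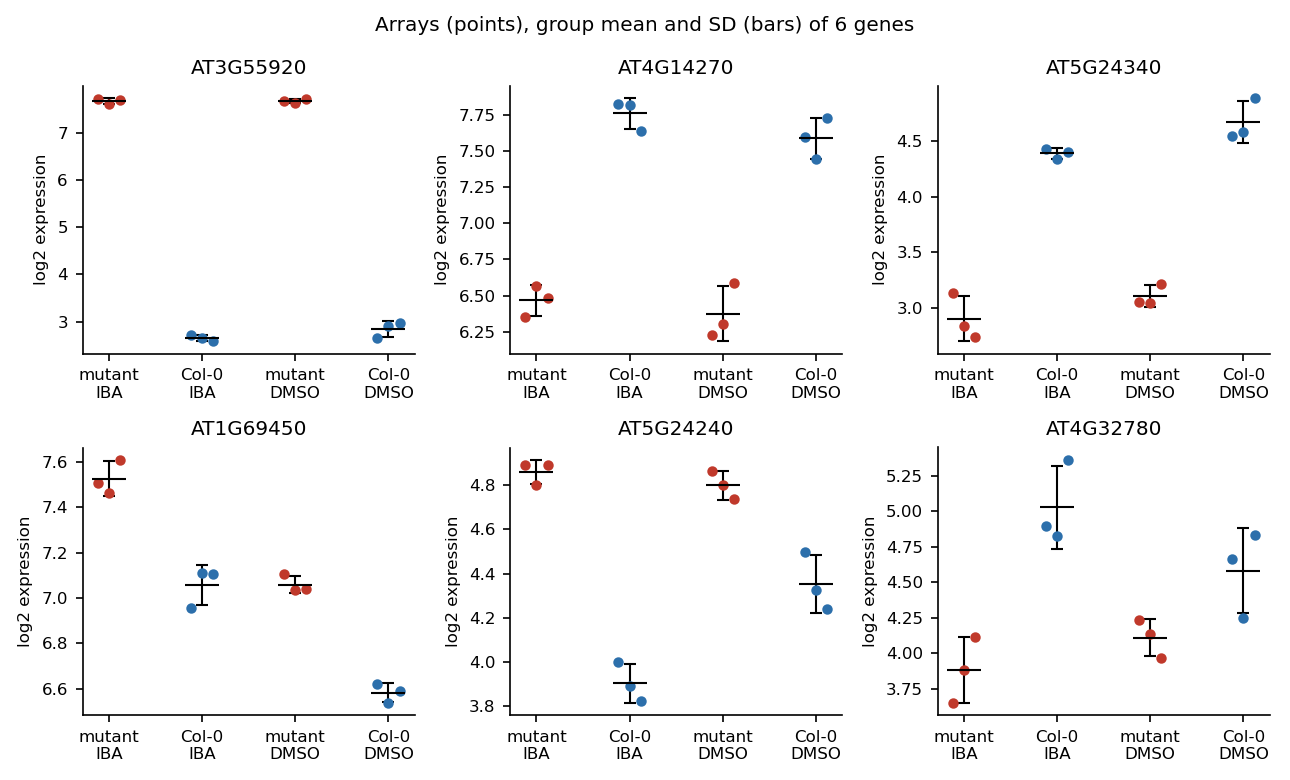
Log2 RMA expression of 6 of the 23 genes in each array (points), with the group mean and SD (n = 3) as bars, mutant red and Col-0 blue, and a separate vertical scale per panel that does not start at 0. AT3G55920, AT4G14270 and AT5G24340 keep their gap on both media; in AT1G69450 both genotypes stand 0.47 to 0.48 higher on IBA, and in AT5G24240 and AT4G32780 the gap is wider on IBA, mainly through the Col-0 arrays.

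Position in the genome was not used by the rule. The 23 genes lay on all 5 chromosomes: 7 on chromosome 1, 4 on chromosome 2, 6 on chromosome 3, 2 on chromosome 4 and 4 on chromosome 5. These are 30.4%, 17.4%, 26.1%, 8.70% and 17.4% of the 23, beside 26.3%, 14.4%, 20.5%, 14.2% and 24.6% of the 6870 genes that met the entry conditions. In the order of protein-coding genes of the RefSeq annotation, AT2G22590 and AT2G22600 were direct neighbours and both lower in the mutant. AT3G55890 and AT3G55920 lay 3 genes apart, the first lower and the second higher. AT5G24340 and AT5G24240 lay 14 genes apart, again the first lower and the second higher. The next closest pair, AT1G44830 and AT1G47400, was 85 genes apart.

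The nearest measured genes on both sides of the 23 gave 42 genes outside the group, which the rule did not choose. None of the 42 was called between genotypes on DMSO by limma, with 1 at an unadjusted p under 0.05, and 3 were called on IBA, with 6 at an unadjusted p under 0.05. Over the 13356 genes with a 1-gene probe set, 2.04% were called on DMSO and 9.98% on IBA. The share of those genes at an unadjusted p under 0.05 is not given here, so nothing is read from the unadjusted counts. The 3 neighbours called were all higher in the mutant on IBA and were named after their values were seen. AT3G25290, next to AT3G25400, averaged 8.49 in the mutant and 8.06 in Col-0, a difference of 0.43 (limma adjusted p = 0.00814). AT1G47410, next to AT1G47400, averaged 6.50 in the mutant and 6.13 in Col-0, a difference of 0.37 (limma adjusted p = 0.0139). AT2G43610, next to AT2G43620, averaged 10.90 in the mutant and 10.58 in Col-0, a difference of 0.32 (limma adjusted p = 0.0219). Without Col-0 IBA replicate 2 only 1 of the 42 was called: AT2G43610 had an adjusted p of 0.103 and AT1G47410 one of 0.056. AT2G43610 also lost its call without mutant IBA replicate 1 (0.0984) or 3 (0.0556), and AT1G47410 without Col-0 IBA replicate 1 (0.0598). Within 10 coding genes on either side, 196 measured genes lay outside the group, and 15 of them (7.65%) were called on IBA and 4 (2.04%) on DMSO. Around AT3G55920, 9 such genes had differences of -0.32 to 0.28 on IBA and of -0.32 to 0.21 on DMSO. Around AT4G14270, 7 such genes had differences of -0.21 to 0.23 on IBA and of -0.22 to 0.08 on DMSO. None of the genes around these 2 was called by limma on either medium. At an unadjusted p under 0.05 there were 2 around AT3G55920 on each medium, and around AT4G14270 2 on IBA and 0 on DMSO. Of all 196 genes, 39 were at that threshold on IBA and 27 on DMSO. Only genes with a 1-gene probe set were counted, so the probe set shared by AT3G55890 and AT3G55910 was left out. As given above, that probe set was higher in the mutant, as AT3G55920 was. Its means were 3.35 in the mutant and 2.15 in Col-0 on IBA, and 2.73 in the mutant and 2.18 in Col-0 on DMSO. All of these but the 3.35 lay under the dim level.

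**Figure D4:**
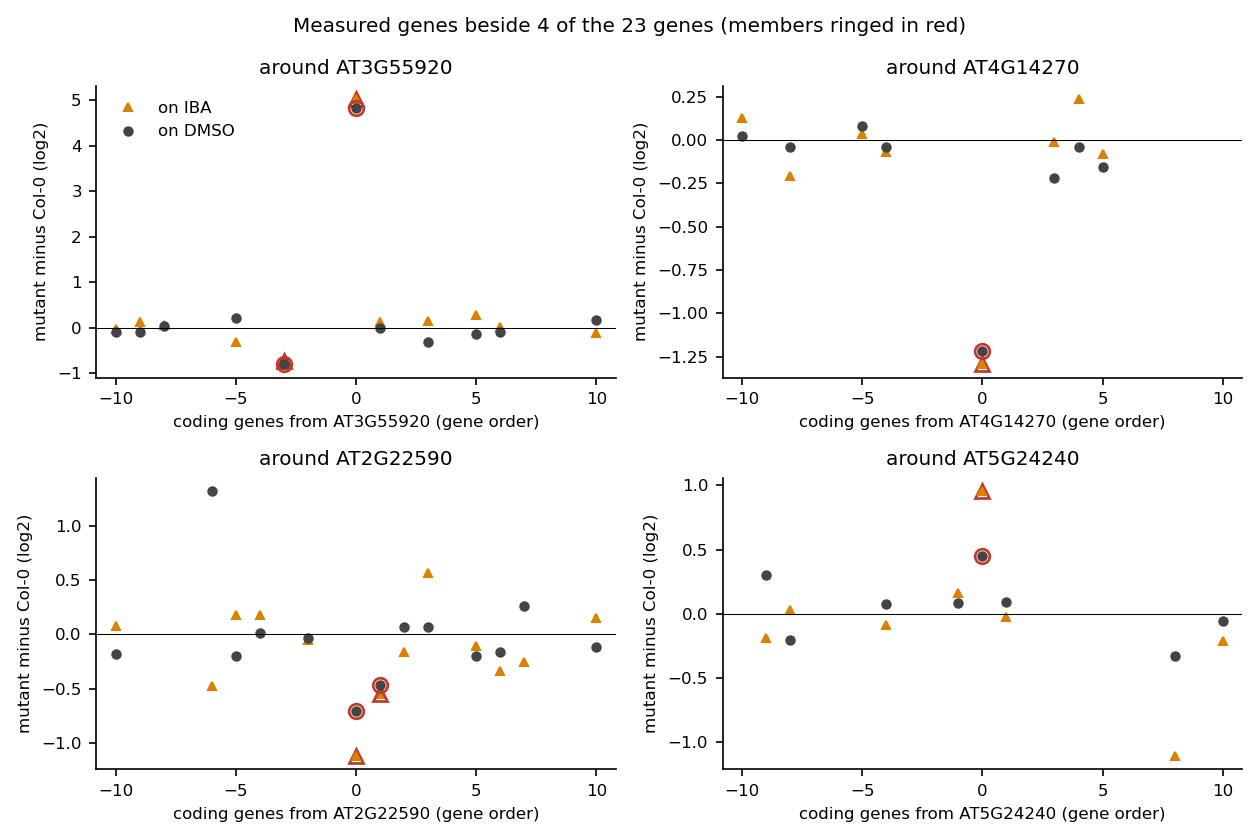
Mutant minus Col-0 difference (log2) on IBA (orange triangles) and on DMSO (dark circles) of the measured genes within 10 coding genes of AT3G55920, AT4G14270, AT2G22590 and AT5G24240, by distance in gene order, with genes of the group ringed in red and a separate vertical scale per panel. AT3G55920 stands at 5.02 and 4.83 while AT3G55890, 3 genes away, stands at -0.72 and -0.80.

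The 3 mutated loci gave another check of position. Within 100 coding genes on either side of IBR1, IBR3 and IBR10 there were 259 measured genes, AT4G14270 included, of which 30 (11.6%) were called on IBA and 5 (1.93%) on DMSO, beside 9.98% and 2.04% of the 13356 genes with a 1-gene probe set. Without Col-0 IBA replicate 2, 18 of the 259 were called on IBA. The window around IBR10 on chromosome 4 held 1 of the 23, AT4G14270, 26 genes from IBR10; the windows around IBR1 and IBR3 held none. The nearest of the 23 to IBR1 was also AT4G14270, 717 genes away, and the nearest to IBR3 was AT3G20340, 1458 genes away. The median difference in the windows was -0.01 on IBA and -0.04 on DMSO around IBR1, 0.00 and -0.04 around IBR3, and -0.02 on both media around IBR10. AT4G14390, 4 genes from IBR10, had differences of -0.52 on IBA (limma adjusted p = 0.0292) and -0.48 on DMSO (limma adjusted p = 0.106). It missed membership through its mutant IBA minus DMSO difference of -0.31, and it was named after its values were seen. Whether sequence linked to the mutated loci or to other sites contributes to any of the 23 differences was not tested.

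**Figure D5:**
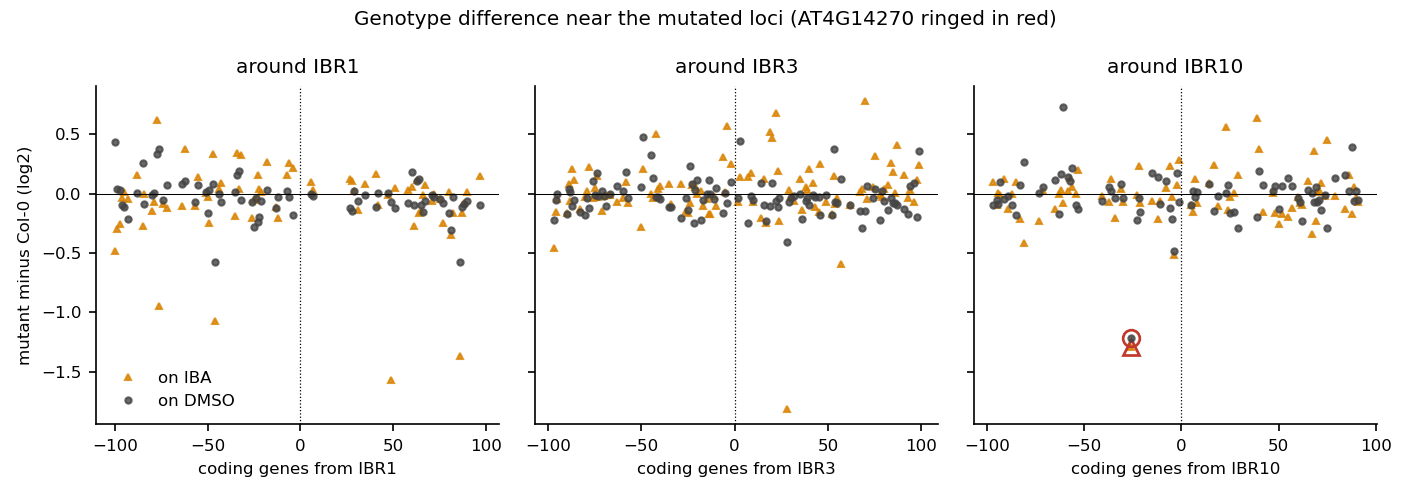
Mutant minus Col-0 difference (log2) on IBA (orange triangles) and on DMSO (dark circles) of the measured genes within 100 coding genes of IBR1, IBR3 and IBR10 (dotted lines), by distance in gene order. AT4G14270, ringed in red 26 genes from IBR10, stands at -1.29 on IBA and -1.22 on DMSO.

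Lists of other genes of the pathway and of cell types show what moved beside the 23; none of the 23 was on a list. Of 93 genes in 8 lists, 13 had a 1-gene probe set. Of these, 7 were called between genotypes on IBA and 2 on DMSO, at limma adjusted p under 0.05. Among all 13356 genes with such a probe set, 9.98% were called on IBA and 2.04% on DMSO. The peroxisomal list had 3 measured members of 23. ICL, isocitrate lyase of the glyoxylate cycle, was higher on IBA at 5.76 ± 0.18 in the mutant and 4.88 ± 0.19 in Col-0 (difference 0.88, limma adjusted p = 0.00796). On DMSO its difference of 0.75 did not pass (limma adjusted p = 0.0662), but it passed without mutant DMSO replicate 3 (0.0123) or Col-0 DMSO replicate 2 (0.0329). AIM1, a multifunctional beta-oxidation enzyme, and PEX4, part of the peroxisomal import machinery, differed by -0.13 and 0.02 on IBA and by 0.17 and -0.03 on DMSO, and neither passed; under the bacterial control scaling PEX4 passed on IBA (0.42, adjusted p = 0.0381). The list's median difference was 0.02 on IBA and 0.17 on DMSO, beside medians of 0.00 and -0.02 over all 13356 genes.

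On the deposited scaling all 3 measured root hair genes, of 9 listed, were lower in the mutant on both media. Limma called all 3 on IBA, beside 9.98% of all genes with a 1-gene probe set. On DMSO it called only EXPA18, beside 2.04% of those genes, and there EXPA7 differed by -0.16 and AT4G26010 by -0.21. EXPA18, an expansin of root hair cells, averaged 7.58 ± 0.05 in the mutant and 8.89 ± 0.11 in Col-0 on IBA, a difference of -1.31 (limma adjusted p = 2.23e-07). On DMSO its difference was -0.46 (limma adjusted p = 0.0131), which 3 of the 6 runs without 1 DMSO array lost: the adjusted p was 0.0505 without Col-0 replicate 1, 0.0683 without mutant replicate 2 and 0.0727 without Col-0 replicate 3. Under the bacterial control scaling it was 0.0942. EXPA7, another root hair expansin, and AT4G26010, a peroxidase, differed by -0.27 and -0.39 on IBA (limma adjusted p = 0.0249 and 0.00238), but by 0.13 and 0.01 under the bacterial control scaling. The EXPA7 call was lost without either of 2 mutant IBA arrays (adjusted p = 0.0699 without replicate 1 and 0.100 without replicate 3) and without either of 2 Col-0 IBA arrays (0.0819 without replicate 2 and 0.064 without replicate 3). The root cap gene AT1G65570, a polygalacturonase, was higher on IBA by 0.66 (limma adjusted p = 0.00553) and differed by -0.22 on DMSO without passing. Its part in the 23 differences was not tested, nor was that of the root hair genes.

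The remaining lists had 1 or 2 measured members each. RCA, Rubisco activase of green tissue, was higher in the mutant on DMSO by 0.63 (limma adjusted p = 0.00557), at 5.74 ± 0.05 in the mutant and 5.12 ± 0.18 in Col-0, but not under the bacterial control scaling (adjusted p = 0.265), under which it passed on IBA instead (0.58, adjusted p = 0.00865). GSO1, an endodermal barrier receptor, was higher on IBA by 0.32 (limma adjusted p = 0.0231). That call was lost without mutant IBA replicate 1 (adjusted p = 0.105), without mutant IBA replicate 3 (0.0598) and without Col-0 IBA replicate 2 (0.107). BHLH101, a transcription factor of the iron shortage response, was higher on IBA by 0.70 (limma adjusted p = 0.0204), at 3.94 ± 0.30 in the mutant and 3.24 ± 0.38 in Col-0. The Col-0 mean on IBA and both means on DMSO lay under the dim level. The BHLH101 call was lost without mutant IBA replicate 1 (limma adjusted p = 0.101) or 2 (0.0516). It was also lost without Col-0 IBA replicate 1 (0.0904) or 2 (0.0724). AT3G13610, an oxygenase of coumarin synthesis on the same list as BHLH101, differed by 0.40 on IBA and 0.18 on DMSO without passing; without Col-0 IBA replicate 3 it passed on IBA (adjusted p = 0.00153), as it did under the bacterial control scaling (0.80, adjusted p = 0.000646). PDF1.2, a defensin, and PS2, of the phosphate starvation list, passed on neither medium; under the bacterial control scaling PS2 passed on IBA (0.49, adjusted p = 0.0153).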

How the data were processed

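The data were 12 one-colour arrays. Per the submitters' processing notes, the authors made the deposited log2 expression values with RMA and affy 1.40.0; RMA equalises the arrays' distributions, so a shift of most transcripts would not show. The arrays that entered 1 RMA run are not named in any label. The precision is limited by the 3 arrays per group.

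After 64 control probe sets were left out, 22746 were tested. The platform annotation names 1 gene for 13513, several for 503 and none for 8730. Names and gene order came from RefSeq's gene table of assembly TAIR10.1, matched by Entrez identifier; 70 identifiers had no match. The probe set with the highest mean stood for a gene. Group means were fitted with limma 3.58.1 in R 4.3.3 (lmFit, eBayes), with two-sided p-values adjusted by Benjamini-Hochberg over the probe sets tested. The script was tested on simulated data.

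The members and lists were chosen with earlier results of these data known. All 23 genes are named, with the genes nearest the threshold and up to 3 genes per list with the smallest p. Alternatives were scalings, models, thresholds, a replicate block and leaving out each array. No sequences are shown, and gene families could not be counted from the gene table.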

Additional observations from a re-analysis of the deposited data

Results flagged for a closer look

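AT5G24240, one of the 23, was picked out because its genotype difference was not equal on the media: the difference was 0.96 on IBA and 0.45 on DMSO, a change of 0.51 (SE 0.12). The interaction term of the limma fit made the call; the rule used the same means, so it stands as a description.

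The genotype difference of EXPA18, a root hair gene, was -1.31 on IBA and -0.46 on DMSO. The change was -0.85 (SE 0.13, limma interaction term, adjusted p = 0.000855). The bacterial control scaling shifted every change of the difference by 0.54, which made that of EXPA18 smaller in size. Its interaction call under that scaling is not given here.

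That of AT1G65570, a root cap gene, was 0.66 on IBA and -0.22 on DMSO. The change was 0.88 (SE 0.20, limma interaction term, adjusted p = 0.0137).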

How the results depend on the processing

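The 414 recomputed differences of the 23 genes kept their direction under every scaling and without each array, and 30 moved by at least the replicate SD. The rule chose these genes by the direction and size of the same differences, so nothing is read from the kept direction. Requiring differences of at least 0.3 gave 25 higher and 25 lower genes, and 0.5 gave 3 higher. Scaling to bacterial controls gave 15 higher genes among 27, of which 10 were among the 23. The alternatives for single genes, constancy, neighbours and genes near the IBR loci were chosen after seeing the data. That scaling called 13372 probe sets on IBA and 207 on DMSO, 23 of the 42 neighbours on IBA, 152 genes near the IBR loci on IBA and 3 on DMSO, and 0 listed genes on DMSO; EXPA7 on IBA turned to 0.13 and AT4G26010 to 0.013. The cause was not tested. An adjusted p under 0.01 left 1535 probe sets on IBA and 253 on DMSO. Without each array in turn, 4 to 13 genes were higher and 277 to 468 probe sets were called on DMSO. Listed genes called then numbered 4 to 7 on IBA and 1 to 3 on DMSO, neighbours on IBA 1 to 3, and genes near the IBR loci on IBA 18 to 34. Same-numbered arrays correlated at 0.02 to 0.17 in their deviations from the group means and were not taken as pairs; a replicate block called 2474 probe sets on IBA and 472 on DMSO. Few of the listed genes have a 1-gene probe set. Dim levels limit AT3G55920, AT5G24340, AT1G47400, BHLH101 and the probe set shared by AT3G55890 and AT3G55910.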
